A study of Sus scrofa with 12 samples.

Results

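The miRNA repertoire of adipose mesenchymal stromal/stem cells (MSCs) was taken from the 3 MSC small-RNA samples of a series of 12 samples. The table listed 326 mature miRNAs on 280 hairpin precursors, and each mature miRNA was counted once, from the entry with the largest total over the 3 samples. Of the 326 miRNAs, 285 had a count in at least 1 MSC sample and 41 were listed at 0 in all 3. The choice of members used no measured difference between groups.

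MSCs had been isolated with collagenase from the abdominal fat of 3 female domestic pigs aged 3 months, grown for 3 weeks with platelet lysate and used at passage 3, and extracellular vesicles (EVs) had been spun down from their supernatants. Each pig gave a small-RNA and an mRNA sample of its MSCs and of its EVs, with no treatment, so that the series holds 3 samples of each of these 4 kinds. MSC replicates 1, 2 and 3 are numbered by pig as labelled, and triplets of values follow this numbering. A pig has a single MSC small-RNA sample, so that a difference between pigs has no test and includes the technical spread between samples.

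A miRNA is a short RNA that guides Argonaute proteins to mRNAs, mainly through the bases near its 5′ end, and thereby lowers their stability and translation. Its hairpin precursor is cut into a duplex with a 5p and a 3p strand, and usually the strand that is loaded on Argonaute accumulates while its partner is degraded. Related miRNAs form families that share target preferences, and many lie in clusters that are transcribed together. miR-21, the let-7 family, miR-143, miR-145, miR-199 and miR-214 are well known in fibroblasts and other mesenchymal cells, whereas miR-122, miR-451 or the miR-200 family mark hepatocytes, erythroid cells and epithelia.

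After each mature miRNA was counted once, the MSC samples held 13751322, 13210300.5 and 9194995 counts, and the EV samples, used only at the end, 15198 to 604813. A count of 0 allows up to 3 counts, which was 0.218, 0.227 and 0.326 CPM (counts scaled to a sample total of 1e6) in the MSC samples. In the MSC mRNA samples, the markers CD44 (3716 to 10023 reads) and NT5E, which encodes CD73 (1238 to 1411), were abundant, ENG, which encodes CD105, had 44 to 75 reads, and THY1, which encodes CD90, was listed at 0. The leukocyte gene PTPRC had 4 to 10 reads, but the endothelial gene PECAM1 had 111 to 215 and CD14, used to mark inflammatory cells, 469 to 588. MSC replicate 3 stood apart from the other MSC small-RNA samples. Its name also has another form than theirs, which the EV small-RNA sample of its pig shares. No batch is given, and pig and preparation cannot be told apart, so that the main results are also given without MSC replicate 3.

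The repertoire was broad in number and narrow in mass. At least 10 counts were found for 254, 251 and 226 miRNAs, and 216 reached this level in all 3 samples. Another 32 reached it in 2 samples and 19 in a single sample. Without replicate 3, 245 miRNAs reached it in both remaining samples. The 14 miRNAs with a mean of at least 10000 CPM held 82.1% of the counts on average and the 42 between 1000 and 10000 CPM another 14.9%. The 67 miRNAs between 100 and 1000 CPM held 2.72%, and the 162 counted miRNAs under 100 CPM together 0.298%. The 10 most abundant miRNAs of each sample took 70.2%, 70.1% and 92.2% of its counts, a mean of 77.5% ± 12.7 (SD, n = 3). It took 30, 32 and 6 miRNAs to reach 90% of the counts. Replicates 1 and 2 were therefore close to each other in concentration, and replicate 3 was far more concentrated.

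**Figure D1:**
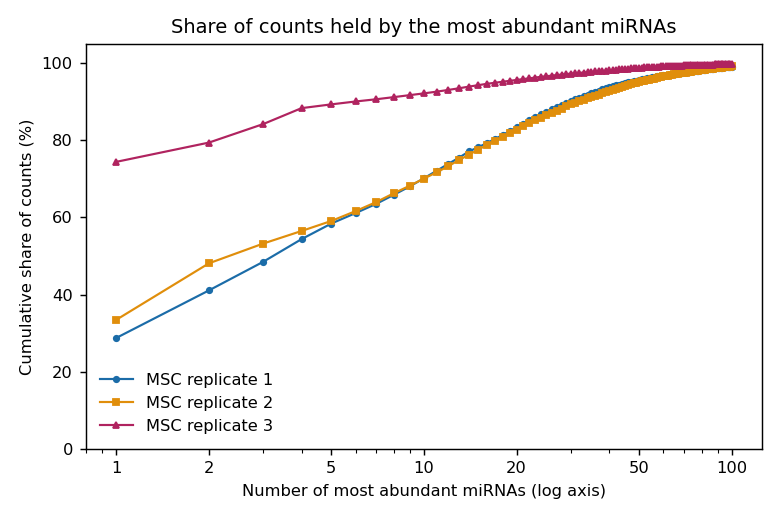
Cumulative share of counts (%) against the number of most abundant miRNAs (log axis) in each of the 3 MSC small-RNA samples. The curves of replicates 1 and 2 start at 28.8% and 33.5% and run together, and that of replicate 3 starts at 74.4%.

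miR-21, which is abundant in many proliferating and stromal cells, was the most abundant miRNA in every MSC sample. It had 3953763, 4420134 and 6843678 counts, which was 28.8% (95% Wilson interval 28.7 to 28.8) of replicate 1, 33.5% (33.4 to 33.5) of replicate 2 and 74.4% (74.4 to 74.5) of replicate 3. Reads had no molecular identifiers, and the intervals therefore cover only counting error. The mean share was 45.5% ± 25.1 (SD, n = 3), and 31.1% without replicate 3. miR-21 was listed by a single name, with no arm. Because counts of a sample sum to a fixed total, a share of 74.4% leaves less for all others: 9797559, 8790166 and 2351317 counts fell outside miR-21. Levels are over the total unless said otherwise, and many that were lowest in replicate 3 were not the lowest there as CPM without miR-21.

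**Figure D2:**
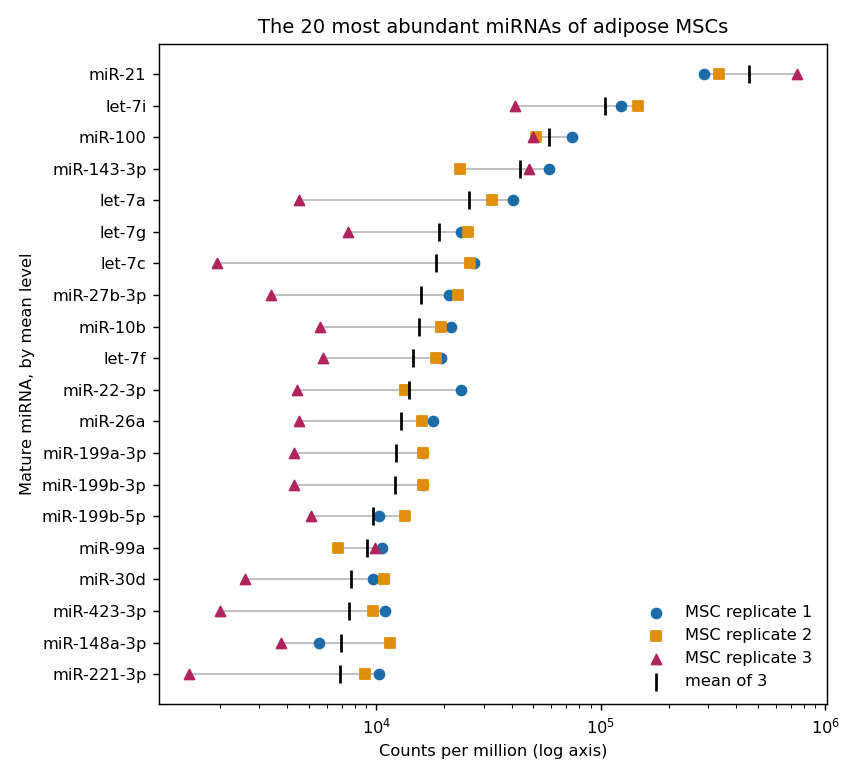
Level in CPM (log axis) of the 20 miRNAs with the highest mean over the 3 MSC small-RNA samples, with a symbol for each sample, a grey line over their range and a black bar at the mean. The level of 17 of the 20 is lowest in replicate 3, and miR-21 alone is highest there.

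After miR-21 came let-7i with 123288, 146493 and 41422 CPM, miR-100 with 74061, 51128 and 49955 CPM and miR-143-3p with 58893, 23439 and 47929 CPM. let-7 miRNAs lower cell-cycle and growth genes and accumulate as cells differentiate, miR-100 lies beside a let-7 gene, and miR-143 is best known from smooth muscle and fibroblasts. miR-100 differed least among these, with a highest sample 1.48 times the lowest. The next by mean level were let-7a with 40545, 32708 and 4496 CPM, let-7g with 23859.7, 25649.6 and 7493 CPM and let-7c with 27227, 26057 and 1958 CPM. For each of these 3, replicates 1 and 2 lay within 2-fold of each other and replicate 3 was lower than both.

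The remaining places down to rank 20 were held by miR-27b-3p, miR-10b, let-7f, miR-22-3p, miR-26a, miR-199a-3p, miR-199b-3p, miR-199b-5p, miR-99a, miR-30d, miR-423-3p, miR-148a-3p and miR-221-3p, with means from 15854 down to 6861 CPM. miR-27b-3p, known to lower the adipogenic regulator PPARG, had 20989.8, 23183 and 3389.6 CPM. miR-10b, encoded within a HOX gene cluster, had 21516, 19299 and 5628 CPM. miR-22-3p was highest in replicate 1, with 23843, 13424 and 4432 CPM. miR-148a-3p was highest in replicate 2, with 5551, 11469 and 3762 CPM. miR-99a was the sole one of these 13 whose lowest level was not in replicate 3, with 10595, 6758 and 9818 CPM.

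The 20 most abundant miRNAs of each sample comprised 25 names in all, of which 14 were shared by the 3 samples. The top 10 comprised 14 names, of which 6 were shared. let-7a, at ranks 5, 4 and 11, and let-7c, at ranks 6, 5 and 24, were placed lower in replicate 3, whereas miR-99a, at ranks 17, 25 and 5, and miR-10a-5p, at ranks 41, 27 and 19, were placed higher there. miR-191, a widely expressed miRNA, was at ranks 20, 19 and 43.

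Reads that matched several hairpins had been divided between them, so that miRNAs with several genomic copies are understated when counted from a single entry, and 53 of the 326 had more than 1 entry. With all entries summed, let-7a had a mean of 46562 CPM in place of 25916 and moved from rank 5 to 4. let-7f moved from rank 10 to 6, and miR-199a-3p from rank 13 to 7. miR-125b, from rank 24, and miR-24-3p, from rank 23, moved to 16 and 14. The first 3 places were the same either way. miR-199a-3p and miR-199b-3p, which had nearly the same values in every sample, cannot be separated in these counts.

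Grouped into families by name, with both arms of a hairpin together, the repertoire was led by miR-21 and the let-7 family. The 9 let-7 family entries, all detected in each sample, took 25.0%, 26.1% and 6.32% of the counts, a mean of 19.1% ± 11.1 (SD, n = 3) and 25.5% without replicate 3. let-7i was the main member and held 49.4%, 56.1% and 65.6% of the family. let-7a held 16.2%, 12.5% and 7.12% and let-7c 10.9%, 9.99% and 3.10%. The share of let-7i was thus highest, and those of let-7a and let-7c lowest, in replicate 3. let-7b is not among the names in the table.

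The miR-99 and miR-100 family took 9.09%, 6.34% and 6.11%, a mean of 7.18% ± 1.66, and over the total had the smallest ratio of the highest to the lowest sample among the 6 leading families, 1.49. Without miR-21 the ratio was 2.51, larger than that of let-7, 1.59. miR-100 held 81.4%, 80.6% and 81.8% of the family. The miR-143 hairpin took 5.92%, 2.36% and 4.81%, with its lowest share in replicate 2. The miR-199 family took 5.03%, 5.58% and 1.60%, the miR-10 family 2.41%, 2.51% and 0.799% and the miR-27 family 2.49%, 2.64% and 0.414%. With all entries summed, the miR-199 family had a mean of 5.40% in place of 4.07% and passed the miR-143 hairpin.

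When miR-21 was left out of the total, the order of the other families within a sample stayed the same and their shares came closer between samples for some families and moved apart for others. The let-7 family took 35.0%, 39.2% and 24.7%, the miR-99 and miR-100 family 12.8%, 9.53% and 23.9% and miR-143 8.31%, 3.54% and 18.8%. let-7 was the largest family outside miR-21 in each sample, and in replicate 3 the miR-99 and miR-100 family nearly equalled it on either scale. The miR-199 family, at 7.06%, 8.39% and 6.24%, and the miR-10 family, at 3.38%, 3.77% and 3.13%, differed little among the samples on this scale. The miR-27 family took 3.50%, 3.97% and 1.62%, the miR-23 family 1.34%, 1.59% and 0.435% and miR-191 1.39%, 1.48% and 0.257%, each lowest in replicate 3.

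**Figure D3:**
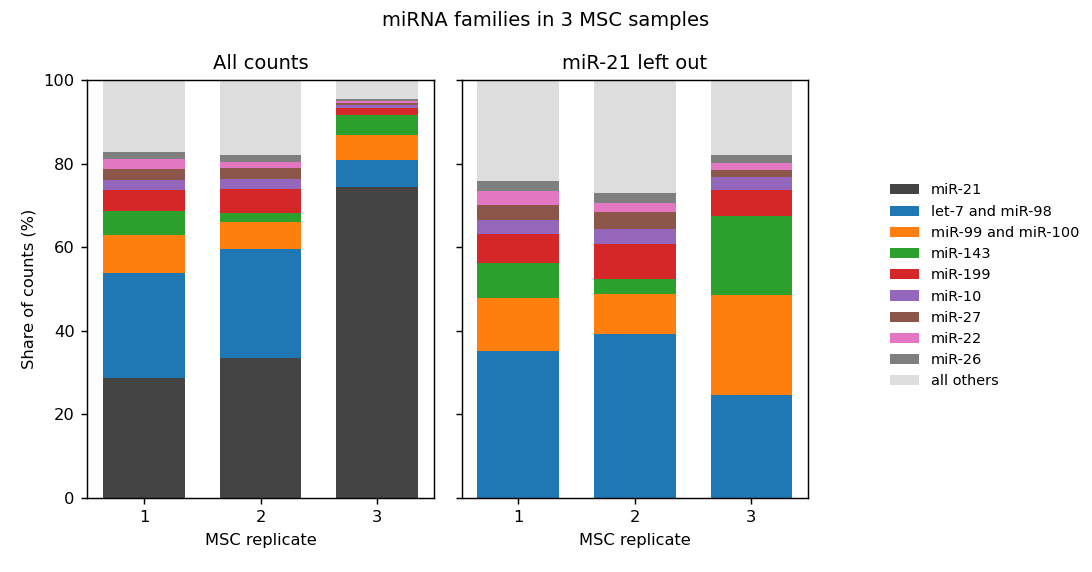
Share of counts (%, bars from 0 to 100) of the leading miRNA families in each MSC small-RNA sample, over all counts on the left and with miR-21 left out of the total on the right. The let-7 share is 25.0%, 26.1% and 6.32% on the left and 35.0%, 39.2% and 24.7% on the right.

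Lists of miRNAs known from particular cell types were set beside the repertoire. All 23 matched entries of the mesenchymal or fibroblast list were detected in each MSC sample, 20 of them with a mean of at least 100 CPM. Over all 326 miRNAs, 216 were detected in each sample and 123 had a mean of at least 100 CPM. The median of the 23 entries, 3544 CPM, compares with 25.4 CPM over all 326. They held 55.4, 53.4 and 87.9% of the counts and, without miR-21, 37.5, 29.9 and 52.7% of the rest. Among them, miR-214, which is encoded beside miR-199a, had 1942, 2348 and 466 CPM. miR-29a, which lowers collagen genes, had 4432, 4523 and 1398 CPM, while miR-29b and miR-29c had means of 39.8 and 9.03 CPM. Since this list was chosen with results of these data known, its high levels are a description.

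Lists of other cell types differed in level. Beside the median of 25.4 CPM over all 326 miRNAs, the erythroid, leukocyte or platelet, epithelial and muscle lists were low. Their medians were 0.206, 0.743, 0.164 and 0.393 CPM. The endothelial, liver and neural lists were not, with medians of 48.8, 43.1 and 24.3 CPM, though the neural list holds miR-9 under 3 names. Detected in each sample were both endothelial entries, 1 of 3 erythroid, 1 of 5 leukocyte or platelet, 0 of 2 epithelial, 2 of 8 muscle, the liver entry and 7 of 8 neural ones, beside 216 of 326 over all miRNAs. The endothelial miR-126-3p had 88.7, 86.1 and 114 CPM. Of the 3 erythroid miRNAs, miR-486 had 7.02, 14.2 and 1.58 CPM, miR-451 7, 0 and 1 counts and miR-144 0 counts throughout. Of the leukocyte or platelet list, miR-155-5p, which activated immune cells make in quantity, had 689, 817 and 294 CPM, whereas miR-142-3p had 12, 11 and 1 counts and miR-150 17.5, 33 and 0. miR-223 is not among the names in the table. Of the epithelial list, only miR-205 and miR-429 are named there, with 12, 0 and 1 counts and 0 counts. The muscle miRNA miR-1 had 20.2, 4.54 and 143 CPM, with its highest level in replicate 3. miR-499-5p of the same list had 79.2, 60.0 and 33.2 CPM, with its lowest level there, while miR-206 and miR-133b had at most 5 and 7 counts. The hepatocyte miRNA miR-122 had 68.2, 57.8 and 3.37 CPM. Of the summed levels of these lists, the endothelial one was 89.9, 86.9 and 116 CPM, the erythroid one 7.53, 14.2 and 1.69 CPM, the muscle one 106, 64.8 and 184 CPM and the leukocyte or platelet one, mostly miR-155-5p, 691, 823 and 295 CPM. In bulk RNA, fewer cells of a type and less RNA per cell cannot be told apart, and the part of other cells in these levels was not tested.

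The neural list had the highest sum of these lists of other cell types in every sample, most of all in replicate 2. miR-129a had 526, 2819 and 16.2 CPM and miR-129b 289, 1464 and 27.5 CPM. The brain-enriched miR-128 had 1079, 554 and 588 CPM, and without miR-21 1515, 832 and 2300.0 CPM, with its highest level then in replicate 3. miR-9 had 30.2, 37.1 and 5.66 CPM, listed with the same values under 3 names, and miR-124a had 0 counts in all 3 samples. The high sum of the list, 1989.7, 4954 and 663 CPM, thus came from miR-129a, miR-129b and miR-128, while the defining neuronal miR-124a was at 0. The pluripotency miRNAs miR-302 and miR-367 are not named in the table.

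miRNAs linked to fat and bone differentiation ranged from among the most abundant to uncounted. Of the 26 entries matched to the list of adipogenic or osteogenic regulators, 20 were detected in each sample and 13 had a mean of at least 100 CPM, with a median of 149 CPM. Over all miRNAs, 216 of 326 were detected in each sample and 123 had a mean of at least 100 CPM. miR-143-3p, miR-27b-3p and miR-26a led it, the last with 17831, 16025 and 4536 CPM. miR-30a-5p had 1174, 2409 and 152 CPM and miR-103, with miR-107 a regulator of insulin signalling in fat, had 2143, 2747 and 641 CPM. miR-378 had 412, 1184 and 1056 CPM and was lowest in replicate 1. Without miR-21 it had 579, 1779.8 and 4130.4 CPM, lowest in replicate 1 as well. miR-196a, encoded within HOX gene clusters and linked to brown fat, had 3, 5 and 144.08 counts, and miR-196b 1.5, 8.83 and 70.58. Both were thus near the count floor in replicates 1 and 2 and clearly counted in replicate 3. miR-204 had 2.84, 6.21 and 3.26 CPM and miR-335 at most 6 counts.

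Members of the clusters that promote proliferation were present at moderate levels. All 11 matched entries were detected in each sample, beside 216 of 326 over all miRNAs, and they summed to 6211, 5605 and 4030.0 CPM. miR-93, miR-106b and miR-25 of these clusters are not among the names listed. Without miR-21 the order turned, with 0.872, 0.842 and 1.58% of the counts and replicate 3 highest. miR-92a had 4210.3, 3446 and 1959.6 CPM, miR-20a 1004, 1056 and 1550.4 CPM, miR-17-5p 387, 498 and 266 CPM and miR-18a 36.7, 36.7 and 47.7 CPM. miR-20a and miR-18a were highest in replicate 3 even over the total. Without miR-21, replicate 3 was the highest for miR-92a, with 5909, 5179 and 7663 CPM, and for miR-17-5p, with 543, 749 and 1041 CPM. The 7 p53-linked entries had a median of 2.03 CPM, beside 25.4 CPM over all miRNAs. Beside the 216 of 326 over all miRNAs, 3 of these entries were detected in each sample. Among these, miR-34a, which restrains the cell cycle, had 1591, 3194 and 168 CPM, while miR-34c had 9.13, 13.1 and 2.34 CPM and miR-192 5.71, 13.1 and 3.37 CPM. The hypoxia-induced miR-210 was low, with 15.8, 15.3 and 18.2 CPM, or 22.1, 23.0 and 71.0 CPM without miR-21.

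Of the 8 entries of miRNAs that act as feedback on inflammatory signalling, 6 were detected in each sample, beside 216 of 326 over all miRNAs. The list, which also holds miR-21 and miR-155, had a median of 291 CPM, beside 25.4 CPM over all miRNAs. miR-146a and miR-146b differed most between samples. Both lower TRAF6 and IRAK1 and have nearly the same mature form. miR-146a-5p had 774, 722 and 2.72 CPM, from 10646.5, 9541.5 and 25 counts. miR-146b had 19.0, 48.1 and 1044 CPM, from 261.5, 635.5 and 9599 counts. The pair was thus almost exclusively miR-146a-5p in replicates 1 and 2 and miR-146b in replicate 3: miR-146b made up 2.40%, 6.24% and 99.7% of their sum. The sum was 793, 770.4 and 1047 CPM, so that its highest sample was 1.36 times the lowest. Without miR-21 in the total, the sum was 1113, 1158 and 4093 CPM. miR-132 and miR-212, encoded together, had 251, 332 and 51.9 CPM and 237, 207 and 32.6 CPM.

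Across all 326 miRNAs, replicates 1 and 2 correlated more closely with each other than with replicate 3. Over log2(CPM + 1), Pearson's r was 0.989 and Spearman's rho 0.982 for replicates 1 and 2, 0.941 and 0.942 for 1 and 3, and 0.930 and 0.929 for 2 and 3. These describe miRNAs within single samples, which are not independent and share library depth, and carry no test. Of the 123 miRNAs with a mean of at least 100 CPM, 109 lay within 2-fold between replicates 1 and 2, 17 between 1 and 3, and 21 between 2 and 3. Only 12 of the 123 lay within 2-fold over all 3 samples, and replicate 3 was the lowest for 112 of them.

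The gap was smaller, but did not close, when miR-21 was left out of the total. Scaled without miR-21, 57 of the remaining 122 miRNAs lay within 2-fold, and the median ratio of the highest to the lowest sample was 2.24 in place of 4.34 for the 123 over the total. Replicate 3 was then the lowest for 85 and the highest for 26. The median difference of replicate 3 from replicate 1 was -2.05 on the log2 scale over the total and -0.58 without miR-21. Of the 19 other miRNAs in the top 20, 11 lay within 2-fold on this scale, 14 were lowest in replicate 3 and 3, miR-100, miR-143-3p and miR-99a, were highest there. All 9 let-7 family entries were lowest in replicate 3 on either scale.

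**Figure D4:**
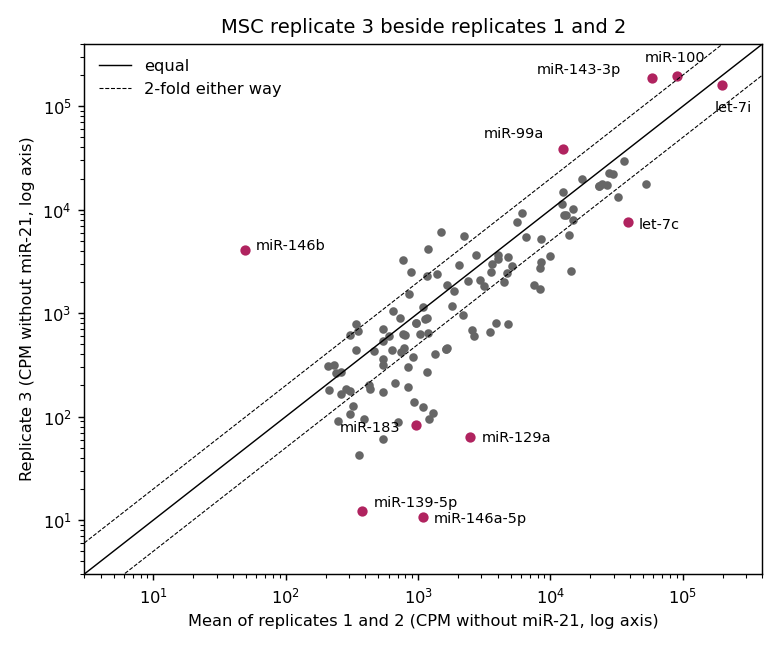
Level in MSC replicate 3 against the mean of replicates 1 and 2, both in CPM without miR-21 (log axes), for the 122 other miRNAs with a mean of at least 100 CPM. Solid and dashed lines mark equal levels and 2-fold differences, and labelled points lie at the edges, with miR-146b far above and miR-146a-5p, miR-139-5p and miR-129a far below the lines.

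By the ratio to the nearer of the other samples, the miRNAs standing highest in a single sample were miR-146b in replicate 3 (21.7-fold), miR-129a (5.36-fold) and miR-129b (5.07-fold) in replicate 2, and miR-615 (3.42-fold) and miR-145-3p (2.76-fold) in replicate 1. miR-615, encoded within a HOX gene cluster, had 611, 151 and 179 CPM. Without miR-21 it had 858, 227 and 699 CPM, and was then low in replicate 2 rather than high in replicate 1 alone. Those standing lowest in a single sample were all lowest in replicate 3. miR-146a-5p was 266-fold below the next sample, miR-139-5p 58.3-fold, miR-129a 32.4-fold, miR-183 25.6-fold and miR-362 23.2-fold. miR-139-5p had 344, 184 and 3.15 CPM, miR-183 541, 768 and 21.1 CPM and miR-362 393, 362 and 15.6 CPM.

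Scaled without miR-21, 8 miRNAs still differed over 10-fold between the highest and the lowest sample. They were miR-146b (153-fold), miR-146a-5p (102-fold), miR-129a (66.9-fold), miR-139-5p, miR-129b, miR-182, miR-183 and miR-455-3p (10.3-fold), and 7 of the 8 were lowest in replicate 3. The steadiest miRNAs over the total were miR-450c-5p, with 1635, 1434 and 1424 CPM, miR-148a-5p, miR-7, miR-542-3p and miR-100, with a highest sample 1.15 to 1.48 times the lowest. Without miR-21 in the total, the same 5 were highest in replicate 3, by 2.27 to 3.37 times the lowest sample.

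Hairpins that are neighbours in the genome are often cut from the same transcript. RefSeq positions were matched for 240 of the 280 hairpins, and 92 of these lay in 37 groups with gaps of at most 10 kb. In 20 groups the 2 most abundant miRNAs from different hairpins, counted once per pair of names, each had a mean of at least 100 CPM. The ratio of the pair stayed within 2-fold over the 3 samples in 9 groups and varied more in 11. let-7f over miR-98 was 14.3, 15.0 and 13.7, miR-181a over miR-181b 1.98, 2.37 and 2.50, miR-221-3p over miR-222 3.13, 2.74 and 2.33 and miR-182 over miR-183 1.03, 1.43 and 1.16. The ratio of these neighbours stayed within 2-fold although miR-182 and miR-183 differed by over 10-fold in level.

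The 4 groups whose ratio varied over 4-fold all differed most in replicate 3. let-7c over miR-99a was 2.57, 3.86 and 0.199, and miR-100 over let-7a was 1.83, 1.56 and 11.1. In both groups the let-7 member was low against its miR-99 or miR-100 neighbour in replicate 3, although let-7a is also made from other hairpins. In the third let-7 group of this kind, miR-99b over let-7e was 1.04, 1.01 and 1.90, and miR-125a of the same group had 5636, 5750.4 and 437 CPM. miR-143-3p over miR-145-5p was 15.7, 12.6 and 51.4 and miR-30d over miR-30b-5p was 23.9, 19.5 and 114. These ratios do not depend on the sample total or on miR-21.

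For 80 hairpins both arms were listed, and 64 had at least 10 counts over both arms in each MSC sample and were tested. The 168 names without an arm, which include miR-21 and most of let-7, held 75.5%, 79.3% and 90.4% of the counts and could not enter. By edgeR's quasi-likelihood test with the pig as a term, the 5p arm was over 2-fold higher with an adjusted p under 0.05 in 29 hairpins (45.3%) and the 3p arm in 26 (40.6%), which left 9 with neither. These shares of the 64 tested hairpins are also the background, since all of them are members. The leading arm was the same in all 3 samples for 60 hairpins, 30 with 5p and 30 with 3p. The weaker arm held under 1% of the hairpin's counts on average in 17 hairpins, 1% to 20% in 31 and over 20% in 16.

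**Figure D5:**
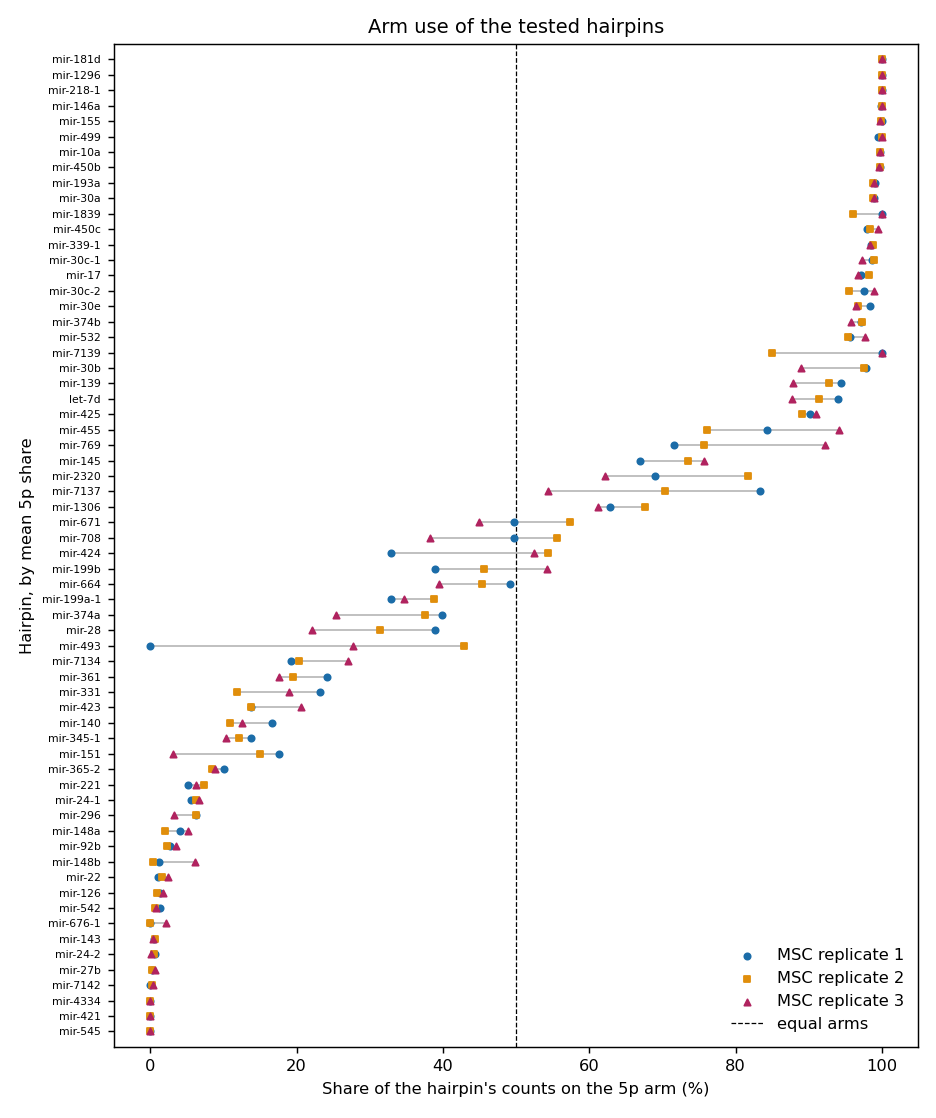
Share of a hairpin's counts on its 5p arm (%) in each of the 3 MSC small-RNA samples for the 64 tested hairpins, ordered by the mean share, with a grey line over the range. The weaker arm holds under 1% in 17 hairpins, and the dashed line at 50% is crossed by mir-671, mir-708, mir-424 and mir-199b.

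The strongest preference for the 5p arm by the fitted difference was found for mir-218-1, mir-146a, mir-181d, mir-1296 and mir-155. mir-218-1 had 10204, 19577.3 and 1059.5 counts of 5p and 0 of 3p in all samples, so that 5p was at least 10280.3-fold higher against 3 counts over the group. For mir-1296 and mir-181d, with no 3p count either, the same bounds were 207-fold and 274-fold. mir-155 had 9470, 10798 and 2706 counts of 5p against 1, 17 and 8 of 3p (log2 difference 9.75 ± 0.83 SE, adjusted p = 6.46e-06). mir-146a had 10646.5, 9541.5 and 25 counts of 5p against 8, 0 and 0 of 3p, so that its low level in replicate 3 came with no switch of arm. Among abundant hairpins, mir-10a had 99.7%, 99.8% and 99.8% of its counts on 5p (log2 difference 8.64 ± 0.44 SE, adjusted p = 1.16e-06).

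The strongest preference for the 3p arm was found for mir-4334, mir-421, mir-7142, mir-545 and mir-27b. mir-4334 had 1273.33, 1540.83 and 252.83 counts of 3p and 0 of 5p, a difference of at least 1022-fold, and for mir-421 and mir-545 the bounds were 204-fold and 63.7-fold. mir-27b had 0.194%, 0.190% and 0.628% of its counts on 5p (log2 difference -8.47 ± 0.55 SE, adjusted p = 1.96e-06). mir-143 had 0.580%, 0.610% and 0.359% on 5p, from 4727, 1901 and 1588 counts (log2 difference -7.63 ± 0.37 SE, adjusted p = 1.16e-06). Its partner in the genome, mir-145, used both arms, with 67.0%, 73.5% and 75.7% on 5p (log2 difference 1.38 ± 0.33 SE, adjusted p = 0.00361). The 2 copies of miR-24 differed in their 5p arms, with 5.53%, 6.20% and 6.73% on 5p for mir-24-1 and 0.682%, 0.572% and 0.168% for mir-24-2, but their 3p arms share reads and were divided between the copies.

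Counts of both arms were nearly equal for mir-671, mir-708, mir-424, mir-199b and mir-664, the 5 hairpins with the fitted difference nearest to 0. The first 4 were also the 4 whose leading arm was not the same in all samples. mir-199b, by far the most abundant of them, had 38.9%, 45.6% and 54.3% of its counts on 5p (log2 difference -0.22 ± 0.30 SE, adjusted p = 0.515), with 141007, 177912 and 46799.7 counts of 5p, and its 3p counts are those shared with miR-199a-3p. mir-199a-1 had 32.9%, 38.8% and 34.7% on 5p (log2 difference -0.87 ± 0.28 SE, adjusted p = 0.0162), with the same shared 3p reads. The arm shares of mir-199b and mir-199a-1, and so the leading arm of mir-199b, therefore depend on how these reads were divided. mir-424 had 32.9%, 54.4% and 52.4% on 5p, lowest in replicate 1, and mir-708 49.8%, 55.6% and 38.2%, lowest in replicate 3. mir-671 had 49.7%, 57.4% and 45.0% and mir-664 49.2%, 45.4% and 39.5%.

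Arm use differed among the samples in part of the hairpins. The log2 ratio of the arms, with 0.5 added to each count, ranged over more than 1 in 36 of the 64 hairpins. This count includes hairpins with 0 counts on an arm, for which the range follows only the depth of the other arm. mir-218-1, with 100% on 5p in every sample, thus had a range of 4.21. The share on 5p ranged over more than 10 percentage points in 14. mir-455 had 84.2%, 76.1% and 94.2% on 5p and mir-769 71.6%, 75.7% and 92.3%, both highest in replicate 3. mir-151 had 17.7%, 15.0% and 3.14%, mir-28 39.0%, 31.4% and 22.1% and mir-374a 39.8%, 37.5% and 25.4%, all lowest in replicate 3. The widest range was that of mir-493, with 0%, 42.9% and 27.8% on 5p, but it had only 0, 9 and 5 counts of 5p and 11, 12 and 13 of 3p. mir-365-2, with 10.1%, 8.44% and 8.85%, and mir-30a, with 98.9%, 98.8% and 98.9%, hardly differed. mir-10a, mir-143, mir-145, mir-24-1, mir-24-2, mir-199a-1 and the hairpins named for differing or not differing among samples fell outside the rule for named hairpins and were chosen after their values were seen.

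The EV samples of the same pigs were set beside the MSC samples to show where the cell repertoire differed. Of 220 miRNAs tested by edgeR, none (0%) differed over 2-fold with an adjusted p under 0.05 (lowest adjusted p = 0.0813), and DESeq2 called 14 higher and 14 lower in MSCs. By unadjusted p in edgeR, 53 (24.1%) were higher and 14 (6.36%) lower in MSCs. With the pig as a block, 0 miRNAs passed the adjusted threshold, and 14 were higher and 3 lower by the unadjusted one. Without EV replicate 3, 96 were higher and 20 lower by the adjusted threshold. Of the 53, 32 were at 0 in every EV sample and passed the filter on low counts through the MSC samples alone. For such a 0, 3 counts over the 3 EV samples amount to 4.71 CPM.

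Of the 20 miRNAs most abundant in MSCs, 6 were higher and 1 lower in MSCs by the unadjusted threshold, against the shares of 24.1% and 6.36% over all tested. The 20 were picked by their MSC levels, which favours the direction higher in MSCs, so that these numbers are a description only. The 6 include miR-199a-3p and miR-199b-3p, which cannot be separated in these counts. CPM and shares here are over sample totals, while the log2 differences were fitted after TMM scaling. The TMM factors were 1.19, 1.17 and 0.307 in MSCs and 0.894, 0.809 and 3.23 in EVs, farthest apart in replicate 3. miR-21 took 13.6%, 9.50% and 8.19% of the EV counts, less than in the MSCs of every pig (log2 difference 3.32 ± 1.21 SE, adjusted p = 0.108). Without MSC replicate 3 the log2 difference of miR-21 was 1.43, and without any other sample between 2.98 and 3.86. miR-22-3p had 797, 1463 and 8093 CPM in EVs (log2 difference 3.15 ± 0.81 SE, adjusted p = 0.0813). In replicate 3 its CPM was thus higher in EVs than in MSCs, at 4432, and it was lower in EVs there only after TMM. miR-148a-3p had 254318, 249934 and 5527 CPM and was the leading miRNA of EV replicates 1 and 2 (log2 difference -4.48 ± 1.60 SE, adjusted p = 0.105). let-7i, with 135909, 100834 and 81229 CPM, and miR-100, with 82502, 42124 and 80538 CPM, had adjusted p = 0.884 and 0.633 in edgeR, which does not show that their levels were equal. The median fitted log2 difference was 1.01 over the 20 and 1.00 over all 220.

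Among miRNAs with the same direction in all 3 pigs after TMM scaling, those farthest higher in MSCs by the fit were miR-7134-5p, miR-3613, miR-2320-5p, miR-1306-5p and miR-499-5p. All had 0 counts in every EV sample and passed the filter on low counts through the MSC samples alone. In EV replicates 2 and 3, 3 counts are 176 and 197 CPM, and all of these miRNAs had at most 91.8 CPM in MSC replicate 3. A 0 at such depth cannot show a direction for that pig. Over the pooled counts, miR-7134-5p was at least 63.8-fold and miR-499-5p at least 12.8-fold higher in MSCs. These bounds rest mainly on EV replicate 1, which held 604813 of the 637103 pooled EV counts. Those farthest lower were miR-127, miR-30e-3p, miR-370, miR-182 and miR-183. miR-127, from an imprinted cluster, had 48.4, 7.72 and 23.3 CPM in MSCs and 197, 9653 and 1448 CPM in EVs (log2 difference -6.67 ± 2.06 SE, adjusted p = 0.0813). Without EV replicate 2 the log2 difference of miR-127 was -2.97, and without any other sample between -7.24 and -5.93. miR-183 had 2943, 7372 and 4803 CPM in EVs and miR-182 3064, 11292 and 4672 CPM. None of these passed the adjusted threshold in the fit to all 6 samples.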

How the data were processed

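Small RNA of MSCs and EVs had been sequenced, and the authors counted reads per mature miRNA and hairpin with CAP-miRSeq. The deposited values are estimated counts, in which reads matching several entries were divided, so that 75.3% of the MSC values were whole numbers. The deposited CPM are these counts scaled to the table's total and were used only as a check. In the mRNA table the authors give raw read counts per gene, used for the marker check, and RPKM, not used here; 3 rows with shifted columns were left out. The submitters' notes name the build susScr3, cutadapt 0.9.5, Bowtie 0.12.7, CASAVA 1.9, TopHat 12.0.6 and HTSeq. The study's methods name featureCounts for genes.

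Each mature miRNA was counted from the entry with the largest total over the MSC samples, and CPM was taken over these entries (Python 3.11.15). Detection meant at least 10 counts. Families were formed by name, with both arms of a hairpin, since mature sequences were not used here. Neighbouring hairpins were found by name in a RefSeq table of Sscrofa11.1, a build other than that of the counts. Estimated counts were rounded for edgeR 4.0.16 in R 4.3.3, fitted by the quasi-likelihood method with Benjamini-Hochberg adjustment. The arm fit held the pig as a term, both arms coming from the same sample. The EV fit used TMM factors and a filter on low counts and held no term for the pig. Calls needed over 2-fold and an adjusted p under 0.05. The fits were also run on simulated data. For the EV fit, these gave every sample the mean MSC composition apart from set changes, and so do not show how it performs on the real samples. The same pig gave the MSC and EV sample of a number, per the labels, and the deviations of these pairs correlated at -0.227, -0.019 and -0.132 over 220 miRNAs. Sample names number these pigs differently in the mRNA and small-RNA assays, and the assays were not matched sample by sample.

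Named were the 20 miRNAs with the highest mean CPM, the 5 miRNAs of at least 100 CPM at each extreme of spread and the 5 steadiest, the 5 hairpins at each extreme and at the middle of arm use with those that changed arm, up to 5 miRNAs a direction against EVs, and members of 15 lists. The members and lists were chosen with earlier results of these data known. Alternatives were summed entries, other scalings, filters and tools, a block for the pig and the omission of each sample. With 9194995 or more counts in each MSC sample, counting error was small beside the differences between samples; 2 EV samples held only 15198 and 17093.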

Additional observations from a re-analysis of the deposited data

How the results depend on the processing

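With summed entries or another choice of entry, the mean shares of miR-21, the 10 most abundant miRNAs and the families moved by less than their SD. The number of detected miRNAs moved by under 1.5 times with these or with each sample left out. Leaving out 1 of 3 samples moves a mean by less than its SD whatever the values, so that no such check was possible for the shares. The miR-21 share then ran from 31.1% to 53.9%. With miR-21 left out of the total, an alternative chosen after seeing the data like the deposited CPM and the summed entries for the 2-fold count, the mean family shares were 33.0% for let-7 against 19.1%, 15.4% for miR-99 and miR-100 against 7.18%, 10.2% for miR-143 against 4.36%, 7.23% for miR-199 against 4.07% and 3.42% for miR-10 against 1.90%. The number of miRNAs within 2-fold was 12 of 123 and depended on scaling: 57 without miR-21, 60 with TMM, 62 with DESeq2 size factors and 22 with a mean of at least 10 CPM (of 190), and from 17 to 109 with a sample left out, 109 without MSC replicate 3 and 21 without MSC replicate 1.

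In arm use, between 24 and 30 hairpins had 5p and between 23 and 29 had 3p higher under every alternative run, the lowest of both without the replicate block, at 24 and 23, against 29 and 26 with it. Against EVs, adjusted calls in edgeR stood at 0 under the other scalings, the open filter and the replicate block, were 14 higher and 14 lower in MSCs with DESeq2, and ran from 0 to 96 higher and 0 to 20 lower with a sample left out, the highest both without EV replicate 3. The unadjusted calls, 53 and 14, were 30 and 27 with DESeq2 and 14 and 3 with the replicate block, and ran from 16 to 112 and from 3 to 24 with a sample left out. These were 18 and 3 without MSC replicate 1, 16 and 7 without MSC replicate 2, 25 and 6 without MSC replicate 3, 47 and 9 without EV replicate 2, and 112 and 24 without EV replicate 3. By the adjusted threshold the fit without the block had no call against EVs for the block to remove, and the block added none. The causes of the changed counts were not tested. Of single named miRNAs and hairpins, 452 repeats stayed on their side of the threshold, 27 passed it only in an alternative and 0 reversed. A change of sign counted as reversed only where the main or the alternative result passed the threshold. With a sample left out, the log2 difference from EVs changed sign for let-7i (-0.08 to 0.78), miR-100 (-0.10 to 1.30) and miR-423-3p (-0.39 to 1.77). That between arms did for mir-424 (-0.45 to 0.20), mir-671 (-0.15 to 0.21) and mir-708 (-0.35 to 0.16).

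Depth limits the EV comparison, since 3 counts are 4.71 CPM over the pooled EV samples and 176 and 197 CPM in EV replicates 2 and 3. With 3 samples in a group no sample was tested as an outlier.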

Other observations

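Outside the lists, the miRNAs of the imprinted cluster that holds miR-127 and miR-370 were low, and several had their lowest level in replicate 2. miR-127 had 48.4, 7.72 and 23.3 CPM, miR-370 69.1, 6.96 and 43.4 CPM, miR-758 10.0, 1.89 and 5.66 CPM and miR-323 4.29, 1.06 and 1.63 CPM. miR-136 had 41, 14 and 19 counts, miR-382 21, 4 and 14 and miR-369 38.5, 3 and 5.5, all lowest in replicate 2 as CPM too. miR-432-5p had 0.0727, 0.227 and 0.435 CPM and miR-432-3p 0 throughout. Both arms of miR-493 had few counts, 0, 9 and 5 of 5p and 11, 12 and 13 of 3p. Both arms of miR-493 and miR-432-5p were lowest in replicate 1 as CPM, and miR-376a, miR-376b, miR-376c and miR-487b had 0 in all 3 samples. The miRNAs around miR-424 and miR-503, known to restrain the cell cycle, were higher. miR-450c-5p had 1635, 1434 and 1424 CPM, miR-450b-5p 667, 887 and 226 CPM, miR-503 395, 432 and 153 CPM, miR-542-3p 192, 225 and 156 CPM and miR-424-5p 97.9, 114 and 50.9 CPM. All 5 were lowest in replicate 3 over the total, by less than 2-fold over the 3 samples for miR-450c-5p and miR-542-3p and by more for the others. These miRNAs were chosen after their values were seen, and the differences were not tested.

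Several names carried the same values in every sample, so that the 326 names overstate the number of separate measurements. They were miR-9 under 3 names, and miR-196b, miR-218, miR-339 and miR-490 each under 2 names. miR-218 had 10204, 19577.3 and 1059.5 counts and miR-339 8002.83, 9729.33 and 1884.33.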
